A study of Mus musculus with 52 samples.

Results

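The genes described here are 45 genes of DNA replication, nucleotide supply and recombination repair, taken from a list of gene names. All 45 were found among the 20730 genes of the count table, and all 45 passed the filter on low counts that left 18882 genes to test. They were measured by stranded mRNA sequencing in 52 bulk libraries of flash-frozen primary mouse osteosarcomas, a bone cancer. In 16 libraries the tumour carried conditional (fl) alleles of Trp53 on both chromosomes (p53fl/fl). In 19 libraries 1 allele was conditional and the other encoded the missense mutant R172H (p53R172H/fl), and in 17 libraries the other encoded R245W (p53R245W/fl). Every group therefore carried at least 1 conditional allele, and no group had normal bone or unaltered Trp53. The recombinase that acts on the conditional alleles, and the age and sex of the mice, are not stated in the labels.

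Replication starts when the origin recognition complex, Cdc6 and Cdt1 load the Mcm2 to Mcm7 helicase onto DNA in G1. Mcm10, Cdc45 and the GINS complex then activate the helicase, primase with polymerase alpha lays down primers, and polymerases delta and epsilon extend them, held by the sliding clamp Pcna that the Rfc complex loads. Most of these genes are transcribed in bursts at the G1 to S transition under E2F factors, so in bulk tissue their RNA follows the share of dividing cells. Active p53 lowers many of them indirectly, through p21 and repressor complexes at cell cycle promoters.

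Each library held 21596798 to 67223388 counts, and the lowest count of any member was 37 (Gins1, p53R172H/fl tumour 476). The 45 members together took 0.0909% to 0.425% of a library's counts. Values are CPM (counts scaled to a common library size, with TMM factors), and differences are on the log2 scale. The libraries were grouped here into 3 sets by the prefixes of the column names. Set A joins FM, FNM, WFM and WFNM, set B is R1002 and set C is R553. Within set A, FM and FNM libraries are p53fl/fl, and WFM and WFNM libraries are p53R172H/fl. Prefix and genotype cannot be told apart there. In set A were 8 libraries each of p53fl/fl and p53R172H/fl, in set B 6 of each genotype, and in set C 2, 5 and 11 in the order given above. The column names also hold a lane label. In set C all libraries without R245W share 1 label, and among those with R245W only 1580 has it. Differences of p53R245W/fl within set C can therefore hardly be told apart from lane, and a term for set does not account for lane. An effect of lane was not tested. Every set B library, 18 in all, paired off with a single library from the other sets and the same genotype, at a Spearman correlation of 0.64 to 0.94 across 11086 genes, against at most 0.52 for any other library outside set B. These correlations were taken on log2 CPM after a fit of set and genotype was removed. Matches between set B libraries were not sought. The tumour numbers differ within these pairs, and whether both libraries come from 1 tumour is not given. Counting a pair as 1 unit, named here by the number outside set B, left 10, 13 and 11 units. Tests over libraries count matched libraries as separate samples and so give p-values that can be too small. A matched-library fit, with a correlation within pairs (estimated at 0.86) and a term for set, is therefore given as well. In 5 p53R245W/fl libraries, which form the 3 units 1580, 1831 and 1835, the bone collagen gene Col1a1 lay below 13 log2 CPM. Counts of calls, and some of the single differences, are given with and without them. In all 52 libraries the 8 osteoblast-lineage markers had counts, with a summed level of 31584.4 to 162606.0 CPM in p53fl/fl, 41501.2 to 166098.5 in p53R172H/fl and 2623.1 to 177333.0 in p53R245W/fl libraries.

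Trp53 itself had medians of 14.2 CPM in p53fl/fl, 36.2 CPM in p53R172H/fl and 34.7 CPM in p53R245W/fl libraries. No p53fl/fl library, at 8.52 to 20.1 CPM, reached the lowest p53R172H/fl library (26.05 CPM) or p53R245W/fl library (22.03 CPM). The counts are per gene, so reads from the part removed from a conditional allele cannot be told apart from the rest.

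The members varied widely between tumours of the same genotype. A member score, the mean over the 45 genes of the deviation from each gene's median in log2 CPM, ran over the 34 units from -0.75 in p53R172H/fl unit 1509 to 0.85 in p53R245W/fl unit 1835. Each genotype held units on both sides of 0. The p53fl/fl units ran from -0.51 to 0.63 with a median of -0.09. The p53R172H/fl units ran from -0.75 to 0.55 with a median of -0.01. The p53R245W/fl units ran from -0.73 to 0.85 with a median of -0.05, and from -0.73 to 0.53 without the 3 units of low Col1a1. In bulk samples fewer dividing cells and less RNA per cell cannot be told apart. Between matched libraries the score had a Spearman correlation of 0.95 over 18 pairs and a median absolute difference of 0.0801. The pairs were chosen as the most alike in these same data, so such closeness was in large part fixed by that choice. The same limit holds for single genes. For all 45 members the SD within pairs (median 0.16 over the members) was smaller than the SD between units (median 0.49). The SD within pairs was taken around the mean difference of the pairs and so leaves out a shift between sets. The median SD between units over all tested genes was 0.71. Their median level was lower, at 3.33 log2 CPM against 4.61 for the members. The comparison was not matched on level, so it does not show whether members vary less than genes of like level.

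**Figure D1:**
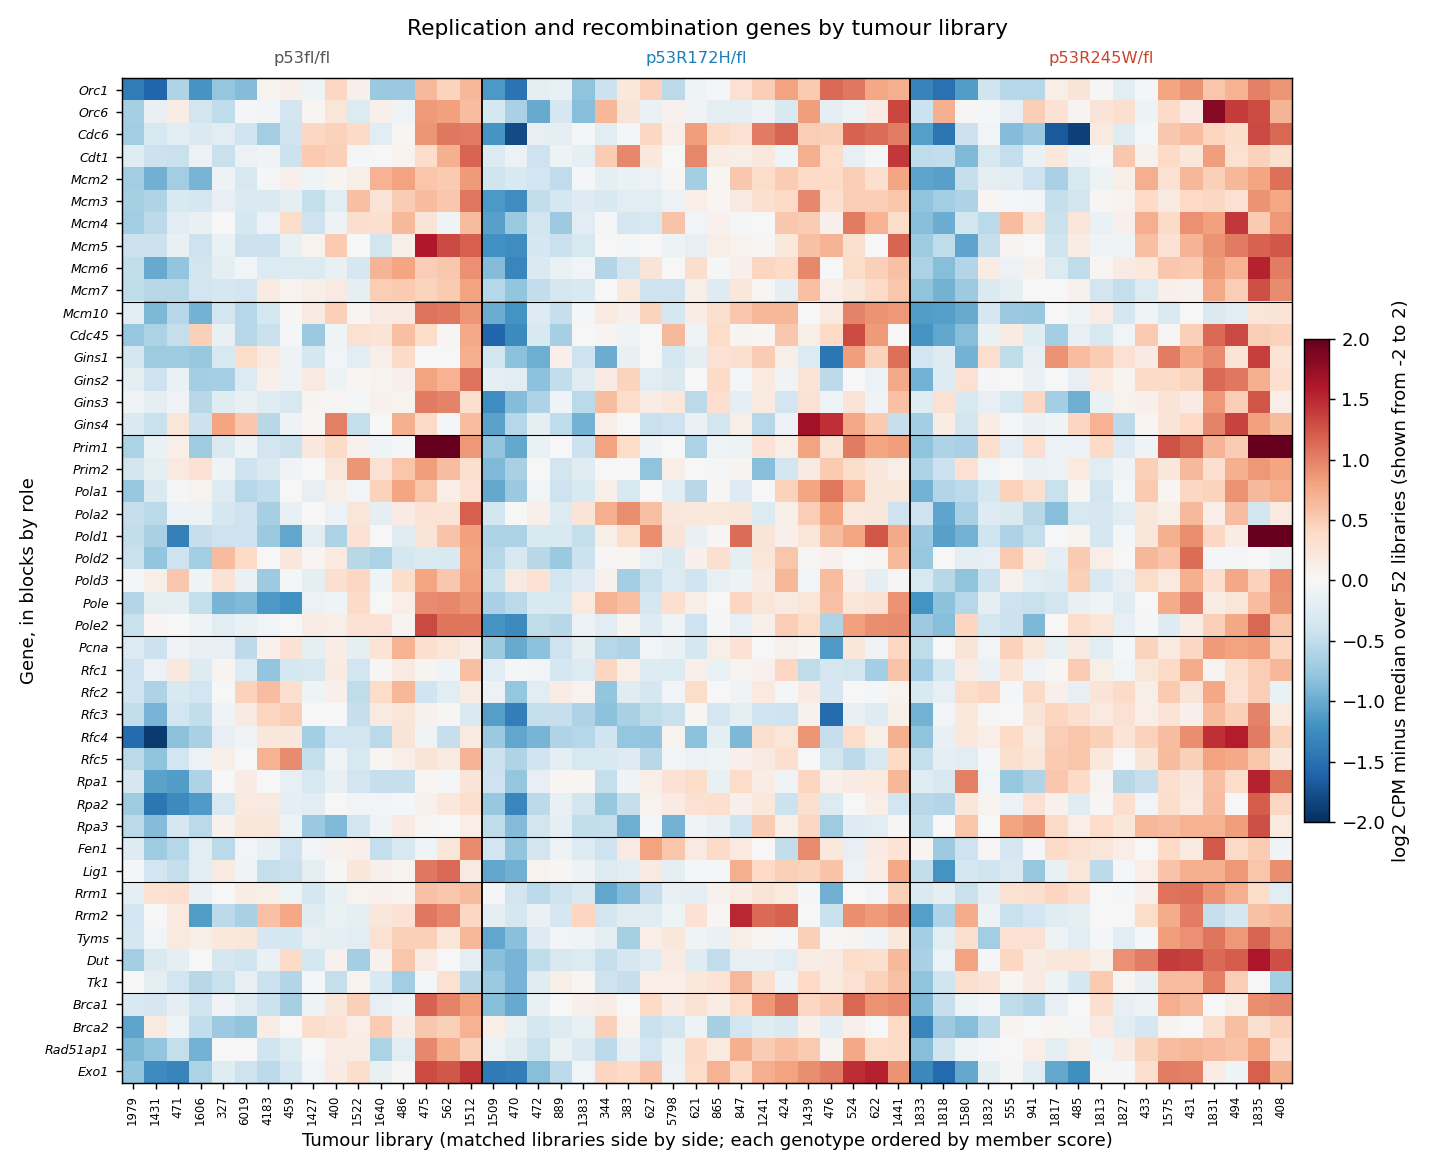
Deviation of each of the 45 genes (rows, in blocks by role) from its median log2 CPM in each of the 52 libraries (columns, by genotype and then by member score, matched libraries side by side). Red is above and blue below the median. Whole columns turn red or blue in each genotype, and Prim1 and Pold1 stand out in libraries 1835 and 408.

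The genes moved together. Of 990 pairs of members, 984 had a positive Spearman correlation over the 34 units, with a median of 0.49. These correlations describe the same libraries and share their scaling. The helicase subunits Mcm2 to Mcm7, which form 1 ring, correlated with each other at 0.73 to 0.88 in their 15 pairs. The 5 subunits of the clamp loader (Rfc1 to Rfc5) reached 0.39 to 0.79, the 4 GINS subunits 0.35 to 0.59 and the 3 subunits of RPA, which coats single-stranded DNA, 0.38 to 0.57. The closest pair was Cdc6, a licensing factor, and Brca1, which acts in recombination repair, at 0.92. The lowest pair was Pola2, the second subunit of polymerase alpha, with Rfc3, at -0.24. Against the mean of the other 44 members, Mcm3 (0.92), Mcm5 (0.91) and Mcm6 (0.89) were highest. The lowest were Rfc2 (0.40), Rpa3 (0.45) and Rfc3 (0.45).

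By role, the licensing genes followed the remaining members at 0.95, helicase activation genes at 0.93, recombination repair genes at 0.92 and polymerase genes at 0.90. The clamp, clamp loader and RPA genes followed them at 0.59. The score followed the mitosis and proliferation list, 20 genes outside the members, at 0.88 and the proliferation marker Mki67 at 0.64. With sequencing depth of the library it had a correlation of -0.06. The osteoblast-lineage list went the other way (-0.50), as did marrow granulocyte genes (-0.47). Granulocyte markers are low in most libraries: their summed level ran from 2.0 to 235.7 CPM in p53fl/fl, from 1.2 to 145.7 in p53R172H/fl and from 0.7 to 284.3 in p53R245W/fl libraries, and 4 of the 6 were at 0 in at least 1 library, Elane in 13. The part of these cells in the score was not tested.

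**Figure D2:**
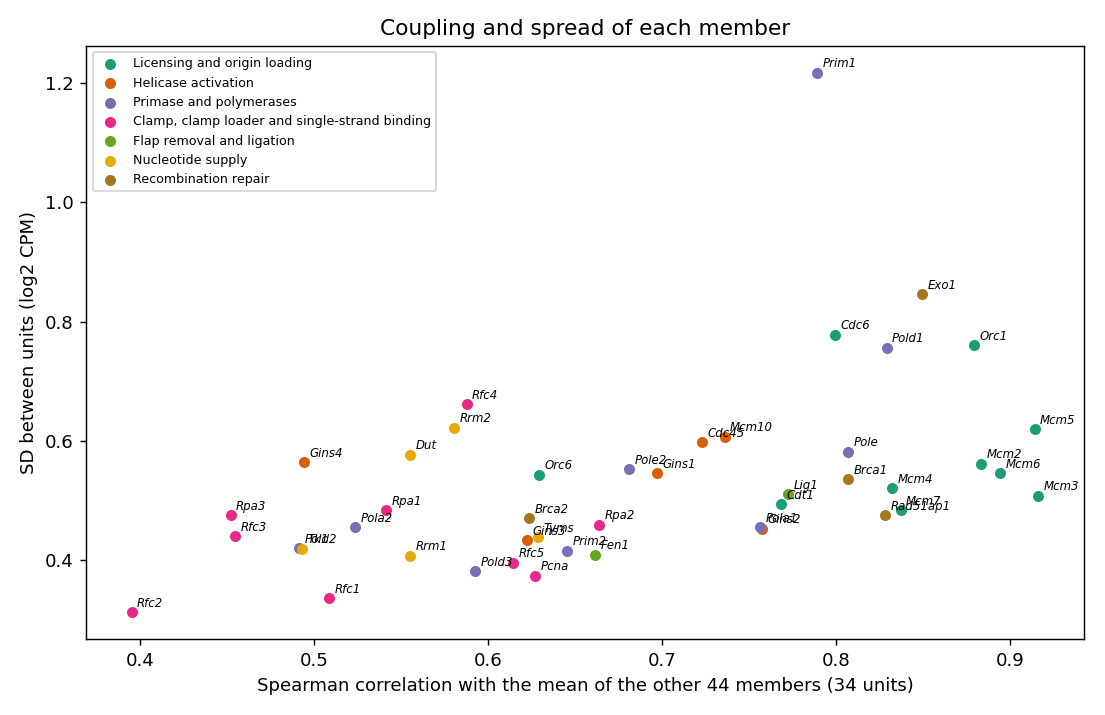
For each of the 45 genes, the Spearman correlation with the mean of the other 44 over 34 units (x axis) against its SD between units in log2 CPM (y axis), coloured by role. Mcm genes sit at the right, clamp loader genes at the left, and Prim1 has an SD of 1.22.

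RefSeq promoter windows (250 bases before to 50 after a start, build GRCm38.p6) were at hand for 37 members, in 42 windows. An E2F word (TTTCCCGC, TTTCGCGC, TTTGCCGC or TTTGGCGC, on either strand) was found in 15 of the 42 (35.7%), against 2.26% of 32851 windows of all genes. The CCAAT word was found in 57.1% against 37.4%, and the words TTTGAA or TTCGAA, searched as the cell cycle element CHR, in 16.7% against 19.2%. The 15 members with an E2F word had a median correlation with the other members of 0.77 (0.45 to 0.92), and the 22 without one had 0.62 (0.45 to 0.88), so the ranges overlap. The 160 bases before the start are shown for 3 closely coupled members with an E2F word there and for 2 loosely coupled ones without, chosen from windows that overlap no annotated exon. Capitals mark E2F words and CCAAT words on either strand.
Mcm5 (chr8:75109349-75109508, plus strand): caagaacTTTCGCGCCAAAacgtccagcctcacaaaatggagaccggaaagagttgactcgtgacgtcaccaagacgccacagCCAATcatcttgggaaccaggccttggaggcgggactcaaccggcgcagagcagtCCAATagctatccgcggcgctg
Mcm6 (chr1:128359706-128359865, minus strand): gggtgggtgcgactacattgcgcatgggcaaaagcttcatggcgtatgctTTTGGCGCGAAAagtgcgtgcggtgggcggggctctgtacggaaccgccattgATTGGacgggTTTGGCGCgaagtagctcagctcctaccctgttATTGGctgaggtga
Cdc6 (chr11:98907991-98908150, plus strand): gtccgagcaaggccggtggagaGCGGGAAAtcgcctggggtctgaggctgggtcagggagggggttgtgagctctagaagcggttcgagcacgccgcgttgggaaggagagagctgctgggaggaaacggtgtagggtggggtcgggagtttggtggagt
Pola2 (chr19:5964207-5964366, minus strand): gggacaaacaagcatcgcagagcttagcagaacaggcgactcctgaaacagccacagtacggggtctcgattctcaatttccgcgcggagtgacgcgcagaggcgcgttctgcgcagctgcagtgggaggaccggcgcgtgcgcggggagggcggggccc
Rrm1 (chr7:102441535-102441694, plus strand): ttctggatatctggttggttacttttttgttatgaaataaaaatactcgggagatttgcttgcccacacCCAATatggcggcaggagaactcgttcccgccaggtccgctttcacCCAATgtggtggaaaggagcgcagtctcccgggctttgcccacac
In Mcm5 and in the first stretch of Mcm6 the E2F words of the opposite strands overlap. The window of Pola2 holds neither word, and that of Rrm1 has 2 CCAAT words. Mcm5, Mcm6 and Cdc6 had correlations of 0.91, 0.89 and 0.80 with the other members, and Pola2 and Rrm1 had 0.52 and 0.56. The choice of these 5 fixed that order. There were members the other way, such as Rfc3 with E2F words and 0.45, and Mcm2 with none in its window and 0.88. A match of letters is a description and not a binding site.

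Levels per kilobase of exon (RPKM, medians over 52 libraries) were highest for the sliding clamp Pcna at 30.4, the helicase subunit Mcm4 at 21.01 and Pold2, an accessory subunit of polymerase delta, at 20.9. They were lowest for Orc1, the subunit of the origin complex that is made and destroyed within a cycle, at 1.48, for the exonuclease Exo1 at 1.69 and for Brca2, which acts in recombination repair, at 1.85. Between units the most variable members were Prim1 (SD 1.22 log2 CPM), Exo1 (0.85) and Cdc6 (0.78), and the least variable were Rfc2 (0.31), Rfc1 (0.34) and Pcna (0.37). Exo1 ran from 4.80 to 41.5 CPM over all libraries, with medians of 12.4 CPM in p53fl/fl, 19.1 CPM in p53R172H/fl and 13.8 CPM in p53R245W/fl libraries.

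Between p53R172H/fl and p53fl/fl tumours no member was called at an adjusted p under 0.05 by edgeR's quasi-likelihood test. Of all tested genes 3.75% were called, 1.46% as higher and 2.29% as lower. At an unadjusted p under 0.05 there were 4 members by edgeR, 6 by DESeq2, which called none of the members and 5.85% of all genes, and 4 by the matched-library fit, which called none of the members and 0.0106% of all genes. Of all genes 18.6%, 19.7% and 9.04% were at an unadjusted p under 0.05 in these 3 fits. The median log2 fold change of the 45 was 0.02, against -0.02 for all genes. The 4 members were the clamp loader subunit Rfc3 (-0.39, SE 0.14, adjusted p 0.0917 by edgeR), the thymidine kinase Tk1 (0.36), the large ribonucleotide reductase subunit Rrm1 (-0.32) and the primase subunit Prim2 (-0.32). The largest differences were in Pold1 (0.52, SE 0.28), the catalytic subunit of polymerase delta, in Orc1 (0.43, SE 0.25) and in Rfc3. Rfc3 had a median of 16.4 CPM (7.72 to 24.4) in p53R172H/fl against 22.5 CPM (11.8 to 31.7) in p53fl/fl libraries, and the groups overlapped. Within set A, which holds libraries of these genotypes alone, its difference was -0.06, within set B -0.78 and within set C -0.63. Without p53R172H/fl unit 1509, the unit with the lowest score, Tk1 alone was called (0.45, edgeR adjusted p 0.0495), just inside the threshold.

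In p53R245W/fl compared with p53fl/fl tumours 7 members were higher and none lower by edgeR. Of all tested genes 17.8% were called, 10% as higher and 7.82% as lower, so the share of members was near that of all genes. The called genes were the dUTPase Dut, the RPA subunits Rpa3 and Rpa1, the clamp loader subunit Rfc4, Tk1, Pold1 and Prim1, the catalytic subunit of primase. The median of the 45 members was 0.18, against 0.04 for all genes, and -0.06 without the 5 libraries of low Col1a1, where 3 members and 11.8% of all genes were called. The matched-library fit called 0 members and 0.0159% of all genes, with a median of 0.01. At an unadjusted p under 0.05 it had 1 member (Dut) and 10.6% of all genes. Against p53R172H/fl, 13 members were called, 11 higher and 2 lower, where 30.9% of all genes were called, 18.2% as higher and 12.7% as lower. Without the 5 libraries of low Col1a1, 8 members were called, 5 higher and 3 lower, and 22.5% of all genes. The matched-library fit called 0 members and 1.63% of all genes there, with a median of 0.00. At an unadjusted p under 0.05 it had 3 members and 17.8% of all genes. The comparisons share samples, so their values for a gene are not independent. For no member were the groups of any comparison fully apart. The share of all genes whose groups are apart is not given here, so this is not a result about the members.

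**Figure D3:**
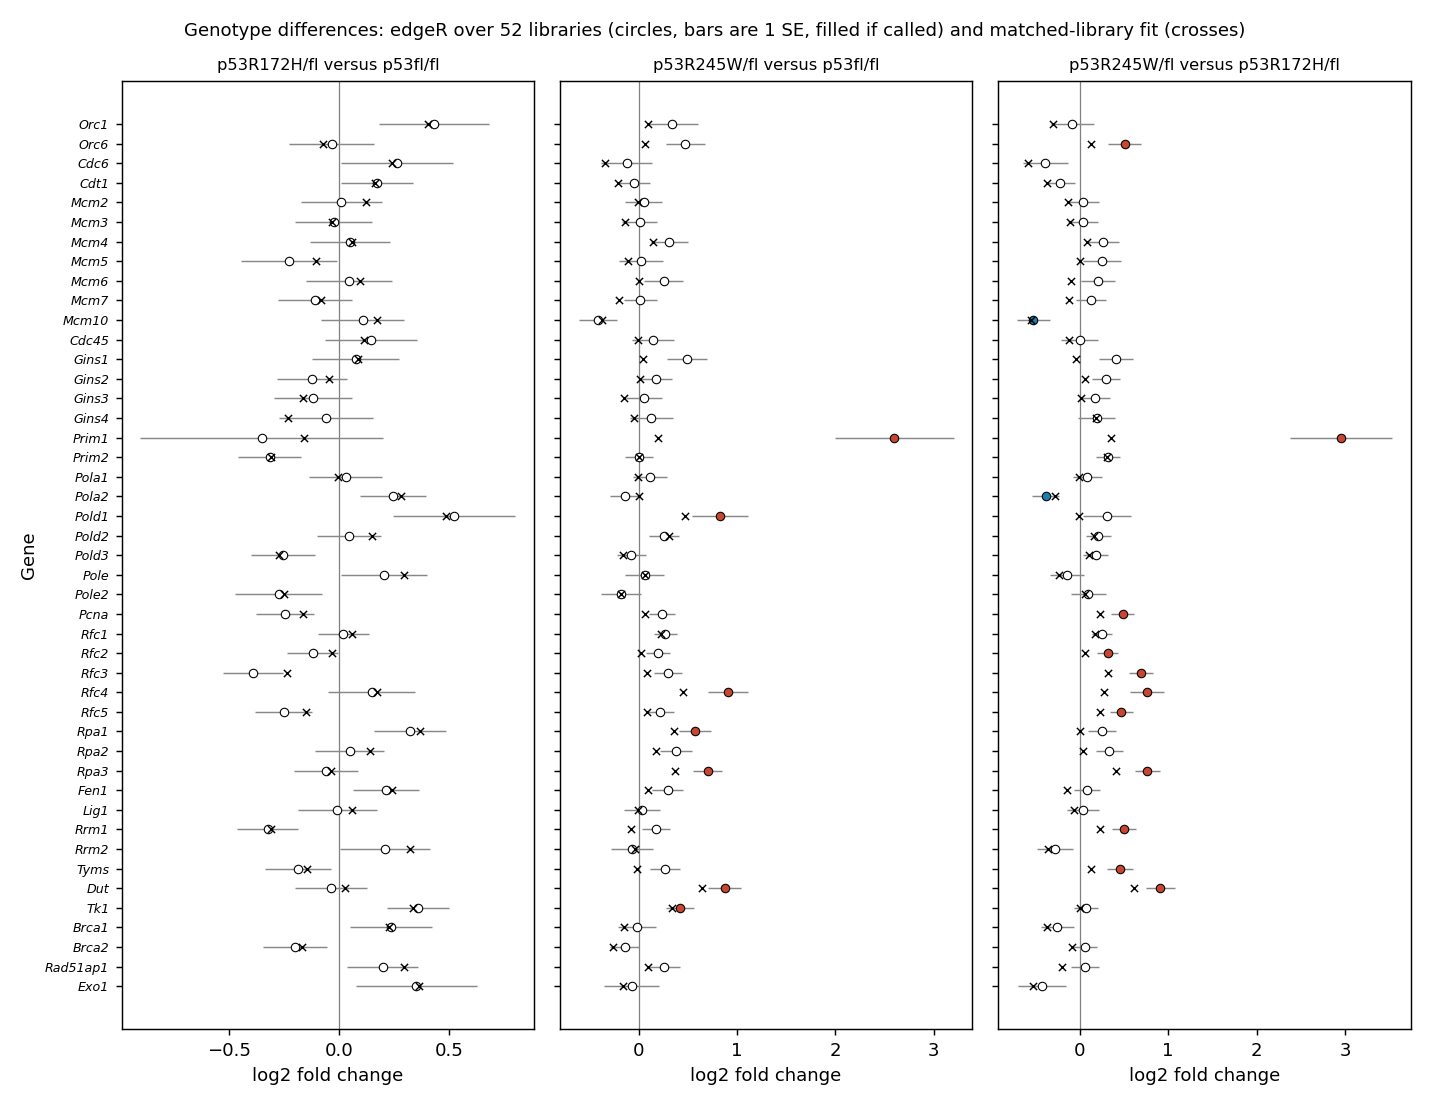
log2 fold change of each of the 45 genes in the 3 comparisons from edgeR over 52 libraries (circles, bars are 1 SE, red called higher and blue called lower) and from the matched-library fit (crosses). Crosses lie nearer to 0 than filled circles for all called members except Mcm10, and the circles of the clamp, clamp loader and RPA block lie to the right of 0 in both p53R245W/fl panels.

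Clamp, clamp loader and RPA genes were the role with the largest number of calls, but roles differ in size. Among the 5 nucleotide supply genes Dut and Tk1 were called against p53fl/fl, and Dut, Rrm1 and Tyms against p53R172H/fl. Over all tested genes 10% and 18.2% were called higher in these comparisons. All 9 clamp, clamp loader and RPA genes had positive differences against p53fl/fl, with 3 called higher and a median of 0.30. Against p53R172H/fl 9 of 9 were positive, with 6 called higher (Pcna, Rfc2, Rfc3, Rfc4, Rfc5 and Rpa3) and a median of 0.47. Of the 45 members 35 were positive in each of these comparisons, and of all genes 53.2% and 55.2%. Without the low Col1a1 libraries 20 and 19 of the 45 were positive, and 47.1% and 49.3% of all genes. Without the 5 libraries of low Col1a1 the medians were 0.18 (9 of 9 positive, 2 called) and 0.29 (8 of 9 positive, 3 called), and in the matched-library fit 0.18 and 0.23 with 0 called. Rpa3, the smallest RPA subunit, had 6.93 to 23.9 CPM (median 14.3) in p53R245W/fl libraries. It had 5.25 to 11.5 CPM (median 9.11) in p53fl/fl and 4.91 to 13.8 CPM (median 8.10) in p53R172H/fl libraries. In 11 of 17 p53R245W/fl libraries it lay above every p53fl/fl library. The differences were 0.70 (SE 0.15, edgeR adjusted p 0.000977) and 0.76 (SE 0.14, adjusted p 9.26e-05), and 0.37 (adjusted p 0.597) and 0.41 (0.353) in the matched-library fit.

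Rfc4 had 7.79 to 40.96 CPM (median 18.8) in p53R245W/fl libraries. Its range was 3.62 to 16.4 CPM (median 10.6) in p53fl/fl and 6.68 to 25.3 CPM (median 9.97) in p53R172H/fl libraries. In 12 of 17 p53R245W/fl libraries Rfc4 lay above every p53fl/fl library. The differences were 0.91 (SE 0.21, edgeR adjusted p 0.00188) and 0.76 (SE 0.19, adjusted p 0.00259), and 0.45 and 0.28 in the matched-library fit, where neither was called. Rfc3 had the most negative difference of the members in p53R172H/fl against p53fl/fl. In p53R245W/fl libraries it had 11.6 to 44.6 CPM (median 26.05). It was above every p53R172H/fl library in 12 of 17, with a difference of 0.69 (SE 0.14, edgeR adjusted p 0.000166), while its difference from p53fl/fl was 0.30 (adjusted p 0.131). The matched-library fit gave 0.33 (adjusted p 0.424) against p53R172H/fl. Pcna had 51.6 to 131.7 CPM (median 84.8) in p53R245W/fl and 33.4 to 97.5 CPM (median 66.9) in p53R172H/fl libraries, a difference of 0.49 (SE 0.13, adjusted p 0.0038). Without the 5 libraries of low Col1a1 its difference was 0.29, and in the matched-library fit 0.23, and neither was called. Rfc5 (0.47) and Rfc2 (0.32) were also higher than in p53R172H/fl, with 0.24 and 0.06 in the matched-library fit, which called neither. The call of Rfc2 was lost without any of 5 units, 1509, 1575, 1827, 1831 or 383. Rpa1 was higher than in p53fl/fl (0.57, SE 0.17, adjusted p 0.0131). Its 2 highest libraries, 1835 with 183.9 CPM and 408 with 133.8 CPM, form 1 unit, and without it the difference was 0.37 (adjusted p 0.0761). The matched-library fit gave 0.36 (adjusted p 0.485).

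Other measures moved with these genes. The TEC and sense intronic share of a library's counts, the annotation's types for transcripts awaiting experimental support and for transcripts inside introns, had a median of 0.152% in p53R245W/fl libraries, 0.325% in p53fl/fl and 0.304% in p53R172H/fl. Over the 34 units all 9 clamp, loader and RPA genes correlated negatively with that share (Spearman -0.65 to -0.19, median -0.46), while the 10 licensing genes lay between -0.16 and 0.37. With the share as a covariate, 4 members were called against p53fl/fl (Rpa3, Dut, Prim1 and Pold1) and 5 against p53R172H/fl (Dut, Prim1, Rpa3, Rrm1 and Tyms), and 5.83% and 8.73% of all genes. Differences also went with transcript length: over the 45 members the Spearman correlation of log2 fold change with exon length was -0.42 against p53fl/fl and -0.38 against p53R172H/fl, and over 18830 genes -0.04 and -0.02. The 23 members with up to 4268 bases of exon had median differences of 0.26 and 0.25, and the 22 longer ones 0.09 and 0.11.

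**Figure D4:**
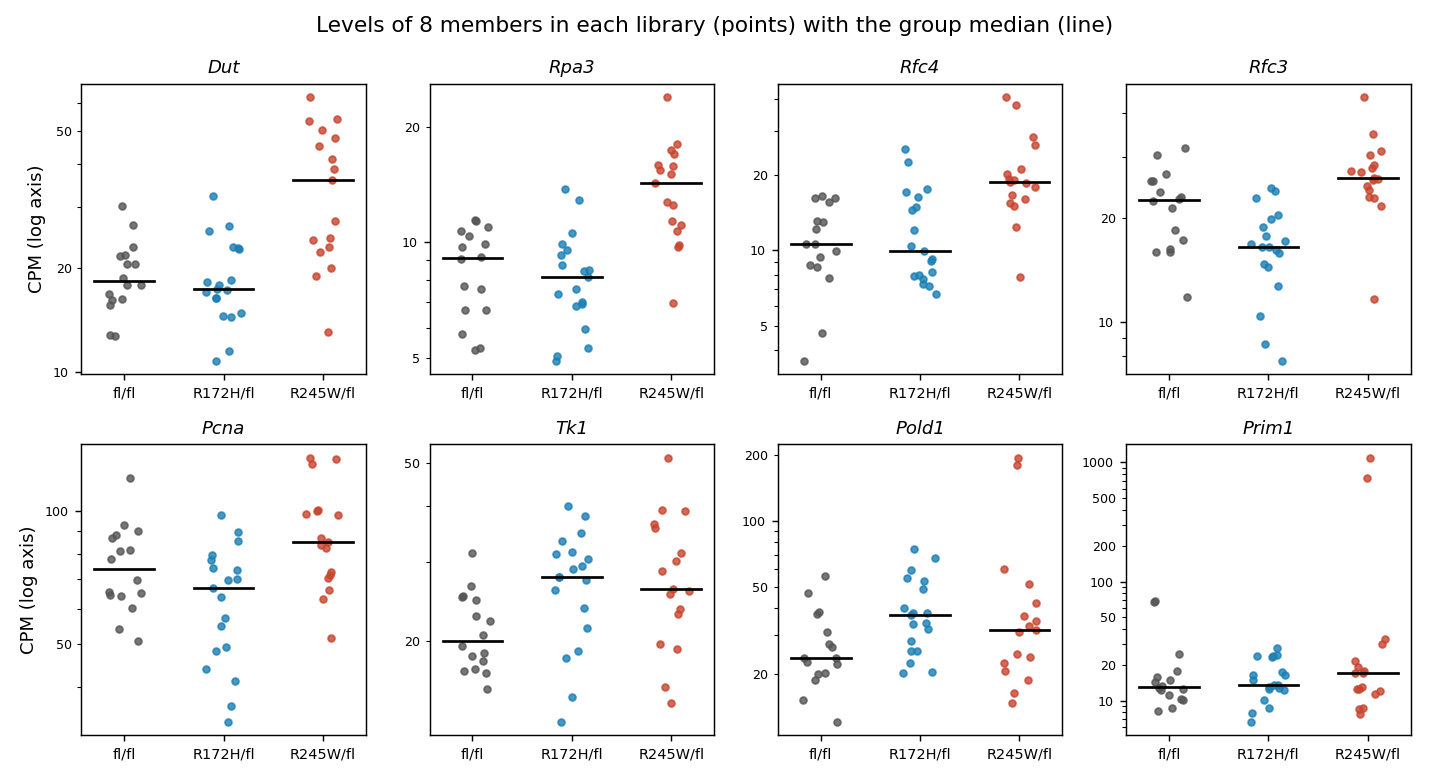
CPM (log axis) of 8 genes in every library (points) by genotype, with the group median (line). The p53R245W/fl points of Dut, Rpa3 and Rfc4 reach beyond every p53fl/fl point but overlap them, and 2 libraries stand apart for Pold1 and Prim1.

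Among nucleotide supply genes, Dut, which removes dUTP so that uracil is not built into DNA, had the smallest p. It had 12.99 to 62.7 CPM (median 35.95) in p53R245W/fl libraries. It had 12.7 to 30.2 CPM (median 18.3) in p53fl/fl and 10.7 to 32.2 CPM (median 17.4) in p53R172H/fl libraries. In 16 of 17 p53R245W/fl libraries Dut lay above the median of either other group, and in 9 above every library of it. The differences were 0.88 (SE 0.17, edgeR adjusted p 0.000381) and 0.91 (SE 0.16, adjusted p 5.02e-05). Both calls held without each unit in turn, without the 5 libraries of low Col1a1 (0.63 and 0.66) and with library set as a term (0.87 and 0.88). In the matched-library fit the difference from p53fl/fl was 0.64 (SE 0.21, adjusted p 0.23) and that from p53R172H/fl was 0.61 (SE 0.20, adjusted p 0.0863). Set B by itself gave 0.84 and 1.17, the second of them called. Set C, where lane nearly follows genotype, gave 0.90 and 0.69. Rrm1 (0.50, SE 0.14, adjusted p 0.00404) and the thymidylate synthase Tyms (0.45, SE 0.15, adjusted p 0.0166) were higher than in p53R172H/fl. Their differences from p53fl/fl were 0.18 and 0.27, and neither was called. In the matched-library fit their differences from p53R172H/fl were 0.23 and 0.13, and neither was called. Without unit 1575, 1831 or 1835 the call of Tyms was lost, and in the matched-library fit without low Col1a1 libraries its sign was negative (-0.11). Tk1, the salvage enzyme for thymidine, was higher than in p53fl/fl (0.42, SE 0.14, adjusted p 0.0327), with 14.6 to 51.3 CPM (median 26.1) against 15.7 to 31.4 CPM (median 20.1). Its call was lost without 1431, 1575, 1640, 1831 or 4183, and the matched-library fit gave 0.34 (adjusted p 0.492). The other subunit of ribonucleotide reductase, Rrm2, had differences of -0.07 and -0.28.

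Of the 16 licensing and helicase activation members none was called against p53fl/fl by edgeR. At an unadjusted p under 0.05 were 3 of them, and 31.4% of all genes. The medians were 0.04 for licensing and 0.14 for helicase activation. The 6 helicase subunits Mcm2 to Mcm7 lay between 0.01 and 0.31. Just outside the threshold was Orc6, a subunit of the origin complex (0.47, SE 0.20, adjusted p 0.0874), and just inside was Pold1 (adjusted p 0.0351). Against p53R172H/fl Orc6 was higher (0.51, SE 0.19, adjusted p 0.035). Its 2 highest p53R245W/fl libraries form unit 1831, with up to 53.6 CPM against a group median of 18.5, and without that unit the difference was 0.28 (adjusted p 0.235). The matched-library fit gave 0.13 (adjusted p 0.806). Mcm10, which binds the helicase as it fires, was lower than in p53R172H/fl (-0.52, SE 0.19, adjusted p 0.0278), with 10.3 to 27.04 CPM (median 18.4) against 9.82 to 44.8 CPM (median 25.5). It lay below the p53R172H/fl median in 15 of 17 libraries, and the matched-library fit gave -0.55 (SE 0.21, adjusted p 0.156). The call of Mcm10 was lost without 1241, 622 or 941. Pola2 was lower as well (-0.38, SE 0.15, adjusted p 0.0439), a call that was lost without any of 11 of the 34 units, and the matched-library fit gave -0.27 (adjusted p 0.38). The other subunits of polymerase alpha and primase had differences of 0.09 (Pola1) and 0.32 (Prim2). Without the 5 libraries of low Col1a1 Cdc6 was called lower too (-0.78, edgeR adjusted p 0.0266), as it was without unit 1835 alone (-0.66, adjusted p 0.0347), against -0.39 (adjusted p 0.241) with all libraries. None of the 4 recombination repair members or of the flap and ligation genes Fen1 and Lig1 was called in any comparison, with differences between -0.42 (Exo1 against p53R172H/fl) and 0.35 (Exo1 in p53R172H/fl against p53fl/fl).

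The calls of Prim1 and Pold1 were lost without unit 1835. Prim1 (chr10:128015168-128030037 on GRCm38) had 1097.9 CPM in p53R245W/fl library 1835 and 734.1 CPM in its match 408, and 7.72 to 32.8 CPM in the other 15 libraries of the genotype. In p53R172H/fl libraries it had 6.68 to 27.97 CPM. In p53fl/fl libraries it had 8.28 to 24.7 CPM apart from the matched libraries 475 and 562, with 66.8 and 68.1 CPM. The edgeR differences were 2.60 (SE 0.60, adjusted p 0.00245) against p53fl/fl and 2.95 (SE 0.57, adjusted p 0.000163) against p53R172H/fl. In the matched-library fit they were 0.19 and 0.35, and neither was called. Without unit 1835 they were -0.32 (adjusted p 0.443) and 0.03 (adjusted p 0.936). DESeq2, which replaces outlying counts in groups of this size, gave -0.34 and -0.0035, and called neither. Pold1 had 193.8 CPM in library 1835 and 178.7 in 408, and no more than 74.2 CPM in any other. Its difference from p53fl/fl was 0.83 (SE 0.29, adjusted p 0.0351), and 0.16 (adjusted p 0.633) without unit 1835, and 0.47 (adjusted p 0.565) in the matched-library fit. The call of Pold1 was also lost without 1427, 1431, 1575, 1640 or 4183, where the difference stayed between 0.75 and 0.84.

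The genes around Prim1 were high in the same unit. Of 39 tested protein-coding genes from Atp23, which starts at 126868427, to Naca, the next gene after it, 35 lay more than 2 log2 units above their median over units in 1835, with a median of 4.47. Of the 41 tested genes beyond Naca that were looked at none did, with a median of -0.03, and Ptges3, the next one, stood at 0.88. Only genes that start within a fixed distance of Prim1 on either side were looked at. Atp23 is the first gene inside that window, so the end of the high stretch on its side was not sought. The run included Cdk4, the kinase that starts the G1 to S transition, with 8697.7 CPM in library 1835 and 4761.2 in 408 against a median of 151.0. The 4 genes of the stretch that did not reach 2 log2 units were Agap2, B4galnt1, Gpr182 and Sdr9c7. In p53fl/fl unit 562, where Prim1 was 2.34 log2 units above its median, the stretch had a median of 0.49 and the genes beyond it 0.20. DNA copy number was not measured in these files. Around Pold1 (chr7:44532746-44548849) 11 of 20 neighbouring genes lay more than 1 log2 unit above their median in unit 1835, with a median of 1.15, while Mybpc2 stood at -3.13. Around Rpa1 the median of the neighbours was -0.34.

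**Figure D5:**
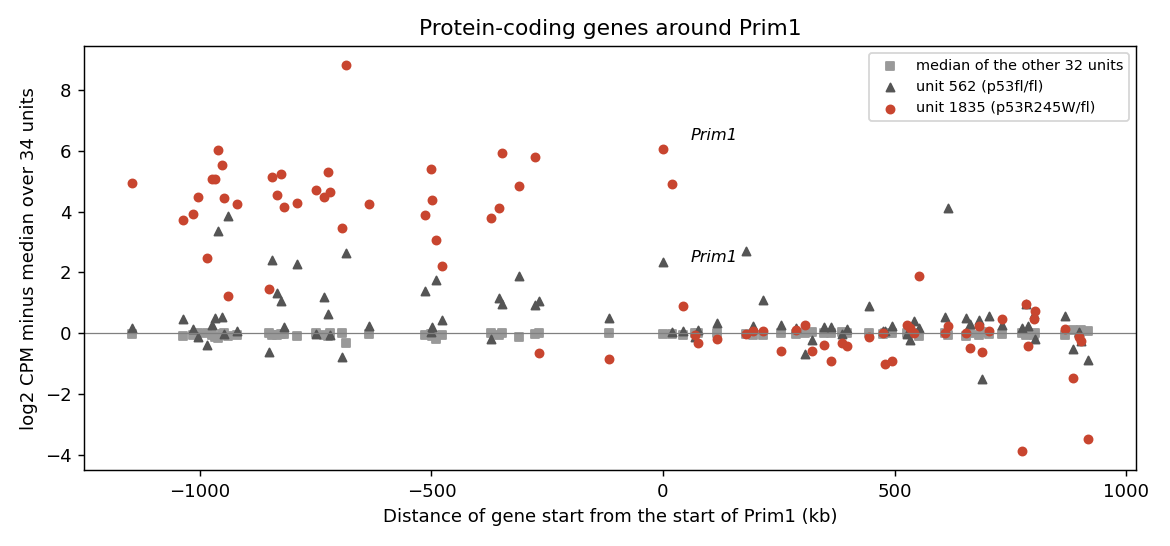
Tested protein-coding genes around Prim1 by distance of their start from that of Prim1 (x axis, kb) with their deviation from the median over 34 units in log2 CPM (y axis), for unit 1835 (circles), unit 562 (triangles) and the median of the other 32 units (squares). From the left edge of the window to the gene just after Prim1, 35 of 39 genes lie above 2 in unit 1835. None of the 41 drawn beyond it does.

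Other members followed their neighbours across tumours to different degrees. Each member was compared over 34 units with the median deviation of up to 20 flanking genes. The Spearman correlation had a median of 0.25 over the members. It was highest for Pole2 (0.77), the second subunit of polymerase epsilon, for the ligase Lig1 (0.70) and for Orc6 (0.68). It was near 0 for Mcm3 (-0.05), Rrm1 (-0.04) and Exo1 (-0.04). Among members far from their median in a single unit, Rfc4 in unit 1831 stood 1.65 log2 units above it with its neighbours at a median of 0.32. Orc6 in the same unit stood 1.59 log2 units above its median with its neighbours at a median of 0.92, and Gins4, a GINS subunit, stood at 1.67 in p53R172H/fl unit 1439 with its neighbours at 0.71. Cdc6 in p53R245W/fl unit 1817 stood 1.83 below its median with its neighbours at -0.01.

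Genes of the same pathways outside the 45 were counted as well, in lists chosen with earlier results of these data known. Over all tested genes 10% were called higher and 7.82% lower in p53R245W/fl against p53fl/fl, and 18.2% higher and 12.7% lower against p53R172H/fl, so the counts in these lists are to be read against those shares. Of 35 other replication genes none was called between p53R172H/fl and p53fl/fl, with 3 at an unadjusted p under 0.05, as were 18.6% of all genes. Against p53fl/fl 4 were higher in p53R245W/fl, namely the origin subunit Orc3 (0.38), the licensing inhibitor Gmnn (0.74), the fork protection factor Tipin (0.68) and the polymerase epsilon subunit Pole4 (0.38). Against p53R172H/fl 9 were higher and 1 lower, among them Pole4 (0.58), Orc3 (0.42), the RNase H2 subunit Rnaseh2b (0.89) and Orc4 (0.46). Of 15 other nucleotide genes 3 were higher than in p53fl/fl, the thymidylate kinase Dtymk (0.51), the purine synthesis enzyme Paics (0.66) and Dctpp1 (0.67). Against p53R172H/fl 2 of these were higher, Paics (0.98) and Dtymk (0.33), and Cad, which starts pyrimidine synthesis, was lower (-0.44). Of 30 other recombination genes the topoisomerase Top3a was higher in p53R172H/fl than in p53fl/fl (0.51, adjusted p 0.0287 by edgeR). None was called in p53R245W/fl against p53fl/fl, with 1 at an unadjusted p under 0.05, as were 31.4% of all genes. Against p53R172H/fl 2 were higher, Nbn (0.40) and Rmi1 (0.44), and 3 lower, Mre11a (-0.31), Rad52 (-0.31) and Top3a (-0.35). Of 20 mitosis genes 4 were higher than in p53fl/fl, the cyclins Ccnb1 (1.10) and Ccnb2 (0.68), Ube2c (0.65) and Cdc20 (0.66), and 3 higher than in p53R172H/fl. In the matched-library fit none of these 100 genes was called, with 7, 2 and 11 of them at an unadjusted p under 0.05 in the 3 comparisons. Of all genes 9.04%, 10.6% and 17.8% were under it there.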

How the data were processed

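The deposited table holds whole-number counts per gene for 52 libraries. Per the labels' protocols, total RNA from frozen tumours was extracted with a column kit and sequenced as stranded mRNA. Reads were aligned with STAR to GRCm38, per the submitters' processing notes. Counting program and annotation were not given in the sources used here. Gene types, exon lengths and positions came from GENCODE M21 on GRCm38, joined by Ensembl ID, and promoters from RefSeq. Nothing says that libraries came from separate mice, so p-values measure the spread between libraries.

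The 45 members and all gene lists were chosen with earlier results of these data known. Counts were fitted in R 4.3.3 with edgeR 4.0.16 (TMM, filterByExpr with a minimum count of 10, quasi-likelihood test, all 52 libraries in 1 model of genotype), and p-values were adjusted by Benjamini-Hochberg over 18882 genes with a threshold of 0.05. The matched-library fit used limma 3.58.1 (voom, duplicateCorrelation, a term for set). DESeq2 1.42.0, other library factors and filters, fits within sets, summed matched libraries and each unit left out were alternatives. Leaving out low Col1a1 libraries and the fits that use matched units or the TEC share are described with their values. Genes named are the members called in a comparison, those nearest the threshold, those at either end of a ranking, and members whose calls changed. Levels on the log2 scale used a prior count of 2. The fitting script was tested on simulated data.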

Additional observations from a re-analysis of the deposited data

Results flagged for a closer look

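In p53fl/fl tumours (10 units) 4 of the 45 members had 1 unit far from the other 9, by the gap to its nearest neighbour as a share of the range, against Dixon's critical value. Chance marks about 1 group in 20, and the rule was not run on all genes. The members move together, so these 4 are not independent results. Prim1 stood at 6.08 log2 CPM in unit 562, with the others between 3.06 and 4.63. Lig1, the ligase that joins Okazaki fragments, stood at 5.82 in the same unit, with the others between 4.25 and 4.95. Pola2 stood at 5.57 in unit 1512, with the others between 3.93 and 4.66. Fen1, the flap nuclease, stood at 5.32 in that unit, with the others between 3.73 and 4.48. Units 562 and 1512 had the highest member scores of the genotype, 0.52 and 0.63.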

How the results depend on the processing

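The counts of members called depended on how matched libraries and the low Col1a1 libraries were treated. Against p53fl/fl, 7 members were called in p53R245W/fl, and 4 with library set as a term, 4 with the TEC share as a term, 3 without low Col1a1 libraries, 4 with matched libraries summed, and 0 within set B, within set C, in the matched-library fit or in that fit without low Col1a1 libraries. With each unit left out there were 4 to 9. Against p53R172H/fl the count of 13 became 10 with set as a term, all of them higher. It was 5 with the TEC share, 8 without low Col1a1 libraries, 4 within set B and 0 within set C. It was 5 with matched libraries summed, 0 in both matched-library fits, and 10 to 15 with each unit left out. Between p53R172H/fl and p53fl/fl it was 0, and 0 to 1 with each unit left out. RLE factors, no filter, a minimum count of 50, the 2 groups alone and DESeq2 gave 6 or 7 and 12 or 13 members. The calls over all genes fell under the same settings. Against p53fl/fl 17.8% of all genes were called, and 5.32% with set, 5.83% with the TEC share, 11.8% without low Col1a1 libraries, 9.04% summed, 0.022% within set B, 0% within set C, and 0.0159% and 0.0627% in the matched-library fits. Against p53R172H/fl 30.9% were called, and 22.8%, 8.73%, 22.5%, 15.2%, 3.38%, 0.0148%, 1.63% and 0.0889% in the same order.

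Of the 100 other pathway genes, to be read against the same shares of all genes, 11 were called against p53fl/fl, and 1 with set as a term, 3 with the TEC share, 4 without low Col1a1 libraries, 3 with matched libraries summed, 0 within sets B and C and in both matched-library fits, and 7 to 14 with each unit left out. Against p53R172H/fl 21 were called, a lower share than the 30.9% of all genes, and 12 with set, 5 with the TEC share, 1 within set B, 0 within set C, 5 summed, 0 in both matched-library fits, and 14 to 25 with each unit left out. Between p53R172H/fl and p53fl/fl 1 was called, and 2 with the 2 groups alone, with set, without low Col1a1 libraries or by DESeq2, 0 within sets A, B or C, summed or in both matched-library fits, and 0 to 3 with each unit left out. Fits within a set or on summed libraries have fewer samples. For the other settings the cause was not tested.

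Some single differences changed sign. In the matched-library fit without low Col1a1 libraries Orc6 (-0.0816), Prim1 (-0.18), Rfc2 (-0.0243) and Tyms (-0.11) were negative against p53R172H/fl. Prim1 against p53fl/fl was -0.33 without low Col1a1 libraries, -0.33 in the matched-library fit without them and -0.34 by DESeq2, which gave -0.0035 against p53R172H/fl. Prim2 was called higher than in p53R172H/fl with set as a term (0.44). No paired analysis was possible because the groups share no replicate numbers in the labels. The lowest count of a member in any library was 37, and the part of depth in these counts was not tested.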
